A study of Mus musculus with 5 samples.

Results

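Guanylate-binding proteins (Gbps) were measured in mouse heart grafts with and without prolonged cold ischemia, to ask whether this interferon-inducible gene family differs in signal after ischemia reperfusion (I/R). The members considered were Gbp2, Gbp3, Gbp4, Gbp5, Gbp6, Gbp7, Gbp8 and Gbp9. A member counted as measured where a probe set of the array carried its symbol as the only gene symbol in the platform annotation. By this rule 6 of the 8 genes were measured, Gbp3, Gbp4, Gbp5, Gbp7, Gbp8 and Gbp9, each by 1 probe set among 21789 probe sets with a single symbol, for 19938 genes. Gbp2 shares its only probe set with Gbp2b, and Gbp6 lies only on a probe set that also names Gbp4, Gbp8, Gbp9, Gbp10 and Gbp11, so no value is given for either.

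The grafts were hearts of C57BL/6 mice, implanted heterotopically into syngeneic C57BL/6 recipients, from animals bought at 8 weeks of age. Grafts 2553, 2555 and 2557 were kept for 18 h in cold University of Wisconsin solution before implantation (I/R, n = 3), whereas grafts 2554 and 2556 were implanted without this storage (non-I/R, n = 2). All 5 grafts were therefore transplanted and reperfused, and no unoperated heart is compared here. The sample labels put harvest at 24 h after transplantation, whereas the text of the study on these arrays gives day 2. RNA of each graft was hybridised to 1 Affymetrix Mouse Gene 1.0 ST array, and signals are log2 values made by the authors with robust multiarray average (RMA), with array medians between 6.58 and 6.65. The part of each heart taken for RNA is not stated in the sources used here. Graft tissue holds donor heart cells and the recipient cells that have entered it, so fewer cells of a type and less RNA per cell cannot be told apart in these values.

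Gbps are large GTPases of the dynamin superfamily whose transcription is switched on mainly by interferon gamma, and also by type I interferons. The interferon receptors act through Janus kinases and STAT proteins, which bind gamma-activated sites (GAS) and interferon-stimulated response elements (ISRE) near the start of target genes. The proteins assemble on vacuoles that hold microbes and on bacteria in the cytosol, help to break them open and promote inflammasome activation. Macrophages, endothelial cells and many other cell types can express them after interferon exposure.

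Promoter windows of 4 of the 8 genes were at hand, for Gbp2, Gbp3, Gbp5 and Gbp7, from RefSeq on GRCm38.p6, each reaching from 250 bases before to 50 bases after an annotated start site. All 4 genes held the ISRE core, searched on both strands as GAAANNGAAA, where N is any base. The same letters were found in 1131 of 32851 windows of all genes (3.443%), or in 1079 of 27025 genes (3.993%). Except at N, the letters of a match were set by the search, so their likeness between genes was fixed in advance. The stretches around the matches are printed here to show the bases in and beside the element. They are read 5′ to 3′ on the plus strand, on which all 4 genes lie, and capitals mark the ISRE match, which reads as its reverse complement on this strand.
Gbp2, chr3:142620574-142620643: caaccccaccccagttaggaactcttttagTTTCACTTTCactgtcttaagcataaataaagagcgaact
Gbp3, chr3:142559969-142560043: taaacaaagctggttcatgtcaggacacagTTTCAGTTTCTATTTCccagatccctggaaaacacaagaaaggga
Gbp5, chr3:142496739-142496808: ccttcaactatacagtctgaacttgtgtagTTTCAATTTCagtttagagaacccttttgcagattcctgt
Gbp7, chr3:142530253-142530322: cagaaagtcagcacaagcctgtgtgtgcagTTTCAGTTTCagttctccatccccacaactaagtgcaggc

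Counted from the start site, the match began at position -59 in Gbp2, at -53 in Gbp7 and at -165 in Gbp5. In Gbp3 the capitals hold 2 overlapping matches, which began at -45 and -39 from the first of 2 annotated start sites, and the window of the other start site held none. A GAS core, TTCNNNGAA, was found at 2 places each in the windows of Gbp5 and Gbp7, and in neither Gbp2 nor Gbp3. It occurred in 8.298% of all windows. These matches describe letters in the windows, and binding was not measured. Among related genes, 6 of 7 immunity-related GTPases with a window (Gm12250, Igtp, Irgm1, Irgm2, Tgtp1 and Tgtp2) held the ISRE core, as did 12 of 22 type I interferon-stimulated genes.

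**Figure D1:**
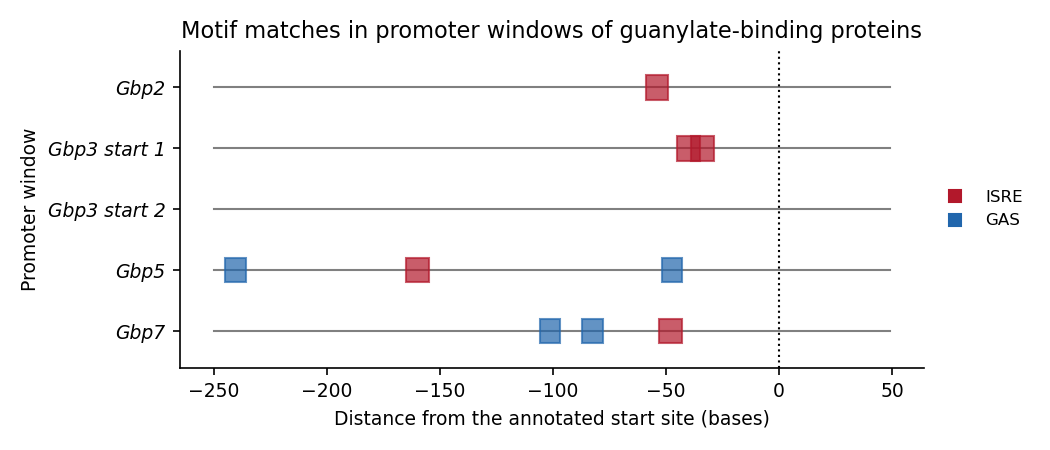
Positions of ISRE and GAS core matches in 5 RefSeq promoter windows of 4 guanylate-binding protein genes, with the distance from the annotated start site in bases on the x axis and 1 line for each window. ISRE matches (red) lie between positions -165 and -30 in each gene, and GAS matches (blue) are seen in Gbp5 and Gbp7 alone.

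All 6 measured Gbps had a lower mean signal in the I/R grafts, with fold differences of 1.22 to 2.3, as against a lower mean for 54.4% of all 21789 probe sets. That share can include some of the 757 probe sets with the same value on all arrays, which rounding can place on either side. The median log2 fold change (I/R minus non-I/R) was -0.73 over the 6 genes and -0.0079 over all probe sets. Signals of 5 genes, all but Gbp8, were lower in every I/R graft than in both non-I/R grafts, a pattern shown by 16.2% of all probe sets. Gbp4 and Gbp9 passed an unadjusted p of 0.05 in limma, the test fitted to all probe sets, and 7.35% of all probe sets did so with a lower signal in I/R grafts. No member passed after Benjamini-Hochberg adjustment over the 21789 probe sets, and neither did any other probe set (0%), although 3265 had an unadjusted p below 0.05 and the smallest adjusted p was 0.180. The methods' t-test gave 2 calls after adjustment over the same probe sets, neither of them a Gbp. With 3 grafts against 2 there are 10 ways to assign the groups, so that an exact two-sided permutation test cannot give a p below 0.1. This test gave 0.1 for Gbp3, Gbp4, Gbp7 and Gbp9, 0.2 for Gbp5 and 0.3 for Gbp8. The p-values measure the spread between these grafts, and the number of arrays limits their precision.

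Gbp4, which is known to dampen IRF7-dependent interferon production, showed the largest difference among the 6 genes. Its log2 signals were 9.16 and 8.33 in non-I/R grafts 2554 and 2556, and 7.90, 7.29 and 7.44 in I/R grafts 2553, 2555 and 2557. The groups did not overlap, and graft 2554 stood 0.83 above the other non-I/R graft. Mean signals were 7.54 ± 0.316 (SD, n = 3) in I/R and 8.75 ± 0.588 (SD, n = 2) in non-I/R grafts. This was a log2 fold change of -1.20 (SE 0.345, 95% confidence interval -2.18 to -0.23), or 2.3-fold, with an unadjusted limma p of 0.0270 and an adjusted p of 0.296. With limma's p, Gbp4 was the only member to reach 2-fold or more at an unadjusted p below 0.05, which 1% of all probe sets did in this direction. In the methods' t-test its p was 0.0535, and no member met both conditions. The limma call was also lost without graft 2554 (log2 fold change -0.79, SE 0.320), without graft 2555 (-1.08, SE 0.408) and without graft 2557 (-1.15, SE 0.441).

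Gbp9, a neighbour of Gbp4 and Gbp8 in the annotation, had the smallest p of the family. Log2 signals were 8.58 and 8.35 in the non-I/R grafts, against 7.87, 7.54 and 7.55 in grafts 2553, 2555 and 2557. Here the non-I/R grafts lay close together, and a gap of 0.47 separated the lower of them from the highest I/R graft. The means were 7.66 ± 0.189 (SD, n = 3) in I/R and 8.46 ± 0.168 (SD, n = 2) in non-I/R grafts, a log2 fold change of -0.81 (SE 0.148, 95% confidence interval -1.23 to -0.39), or 1.75-fold. The unadjusted limma p was 0.00630 and the adjusted p 0.282. Gbp9 stayed below an unadjusted p of 0.05 when any single graft was left out, with log2 fold changes of -0.93 to -0.69. It was also the only member below 0.05 in the methods' t-test, at 0.0167, which 4.52% of all probe sets reached with a lower signal in I/R grafts.

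Gbp5, which promotes NLRP3 inflammasome assembly and is anchored to membranes by a lipid at its C-terminus, had log2 signals of 7.34 and 6.46 in non-I/R grafts and 6.31, 5.67 and 5.77 in I/R grafts. The distance between the 2 non-I/R grafts, 0.88, was larger than the gap of 0.15 between the groups. The log2 fold change was -0.98 (SE 0.371, 95% confidence interval -2.03 to 0.066), or 1.98-fold, with adjusted p = 0.349 in limma. Without graft 2556 it was -1.42 (SE 0.351) and below an unadjusted p of 0.05, and without graft 2554 it was -0.54 (SE 0.351) and above it.

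Gbp7, linked to the assembly of the phagocyte NADPH oxidase, gave 9.45 and 8.68 in non-I/R grafts and 8.64, 8.26 and 8.34 in I/R grafts. Graft 2556 was only 0.044 above the highest I/R graft, so the difference between the means rested largely on graft 2554. The log2 fold change of -0.65 (SE 0.287, 95% confidence interval -1.47 to 0.16; limma adjusted p = 0.401) was -0.27 (SE 0.202) without graft 2554 and -1.04 (SE 0.202) without graft 2556, where it passed an unadjusted p of 0.05.

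For Gbp3, a neighbour of Gbp7, the log2 signals were 8.56 and 8.25 in non-I/R grafts and 8.0, 7.95 and 7.48 in I/R grafts. It differed from the other 5 genes in having its lowest value in graft 2557 rather than graft 2555. The log2 fold change was -0.60 (SE 0.217, 95% confidence interval -1.21 to 0.018; limma adjusted p = 0.341), and no graft left out brought p below 0.05.

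Gbp8 had signals of 6.15 and 5.82 in non-I/R grafts and 5.82, 5.51 and 5.76 in I/R grafts. Grafts 2556 and 2553 were tied, and the groups met at that value. With a log2 fold change of -0.29 (SE 0.156, 95% confidence interval -0.73 to 0.15; limma adjusted p = 0.461), the difference between the groups was not larger than the spread between grafts. Ties between arrays occurred in 11715 of the 21789 probe sets, and their cause was not tested.

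**Figure D2:**
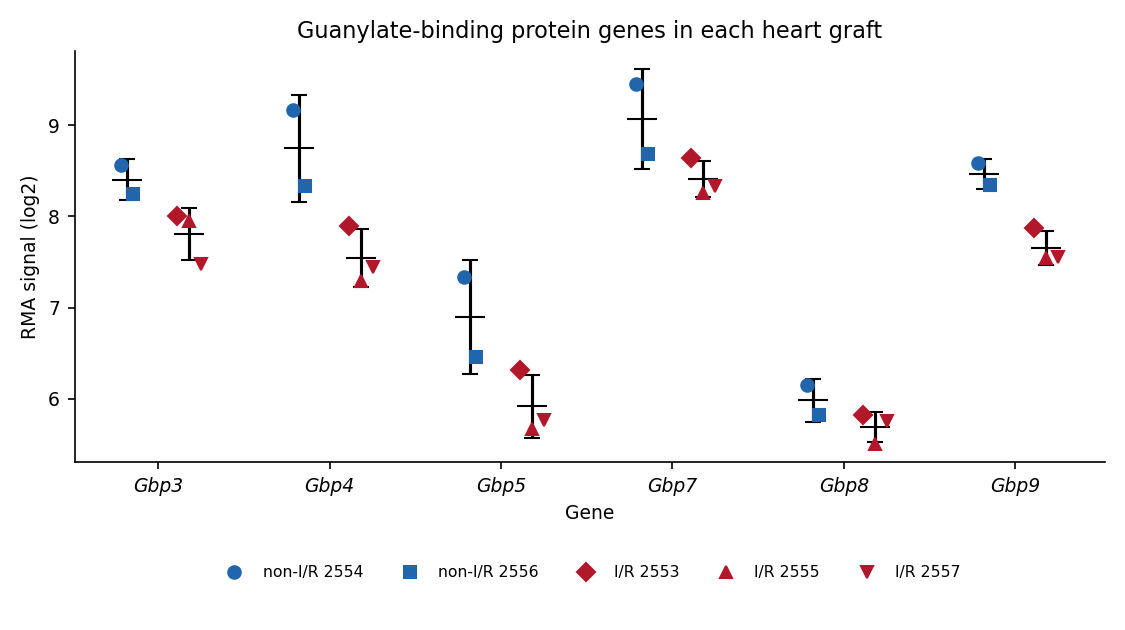
RMA signal on the log2 scale (y axis) of 6 guanylate-binding protein genes (x axis) in non-I/R grafts (blue, n = 2) and I/R grafts (red, n = 3), with a symbol for each graft and black lines for the group mean ± SD. Graft 2554 has the highest value of all 5 grafts for each gene, and the groups are separated for each gene but Gbp8, where they meet at 5.82.

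Graft 2554 had the highest signal of the 5 grafts for all 6 genes. Averaged over the 6 genes, deviations from each gene's own mean were 0.73 in graft 2554, 0.17 in graft 2556, -0.050 in graft 2553, -0.44 in graft 2555 and -0.42 in graft 2557. The I/R graft 2553 thus lay nearer to non-I/R graft 2556 than to the other I/R grafts. Without graft 2554 the median log2 fold change of the 6 genes was -0.49, and without graft 2556 it was -0.98. Every log2 fold change kept its direction in these fits, but the number of genes below an unadjusted p of 0.05 was 1 without graft 2554 and 4 without graft 2556. In such fits the remaining non-I/R graft is assumed to vary like the others.

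**Figure D3:**
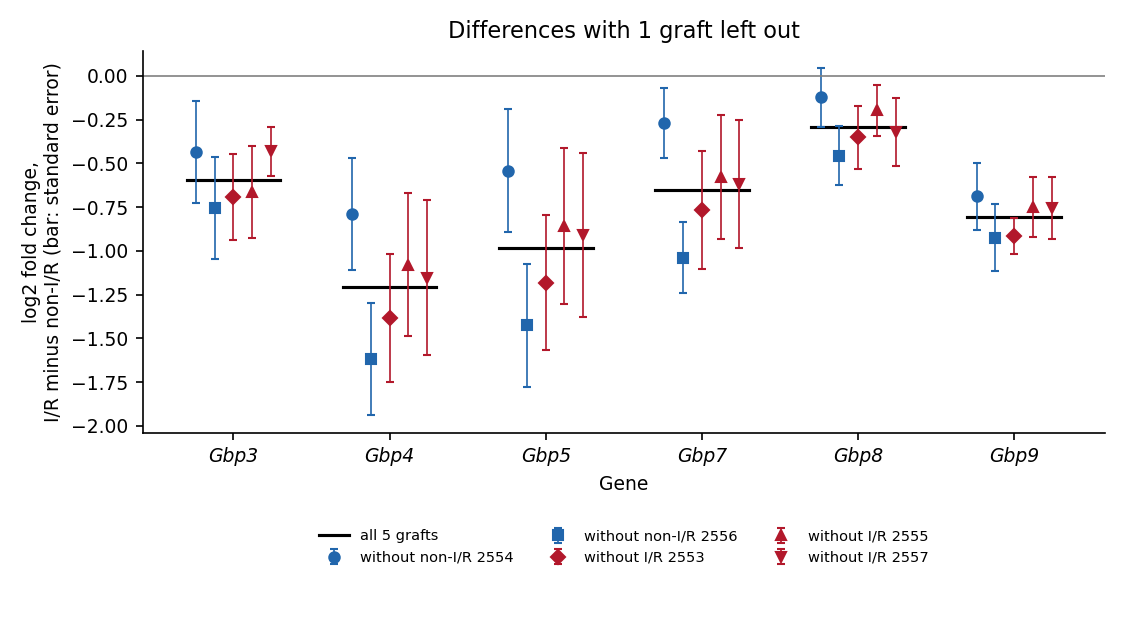
log2 fold change, I/R minus non-I/R (y axis; bars are standard errors from limma), of 6 guanylate-binding protein genes (x axis) with each graft left out in turn, and with all 5 grafts (black lines). All 30 values lie below 0, and for each gene but Gbp3 the value nearest to 0 is the one without non-I/R graft 2554.

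Profiles over the 5 grafts were compared between members by the root mean square (rms) distance of their centred log2 signals, as a description. The signals were not scaled, so the distance follows the size of a gene's differences as well as their pattern over grafts. Log2 fold changes were -1.20 for Gbp4, -0.98 for Gbp5 and -0.29 for Gbp8. Gbp4 and Gbp5 were the closest pair, at 0.113, although they belong to different gene clusters in the annotation. Gbp4 and Gbp8 were the farthest apart, at 0.492, and Gbp7 was the member nearest to the mean profile of the family, at 0.0854. Among 10069 untied probe sets of other genes, those nearest to this mean were Psd3 (0.0366), Gpm6b (0.0385), Gpr157 (0.0431), Abca8b (0.0444), Hmcn1 (0.0450), Ascc1 (0.0487), Efnb3 (0.0502), Ndufaf3 (0.0532), Osbpl6 (0.0593) and Rbl2 (0.0602). All 10 were nearer to it than any single Gbp. They were picked as the nearest of 10069 probe sets, so this comparison cannot show whether the Gbps share a profile. Signal from one family member on the probes of another was not tested, and the genes are close in sequence.

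Beyond the listed members, Gbp2b and Gbp11 were each measured by 1 probe set, and for both the groups overlapped. The log2 fold change was -0.07 (SE 0.0566, limma adjusted p = 0.532) for Gbp2b and -0.42 (SE 0.243, limma adjusted p = 0.477) for Gbp11.

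The immunity-related GTPases, a second family of interferon-inducible GTPases that works at the same vacuoles, had lower mean signals in I/R grafts for all 4 measured genes of 10 listed, with a median log2 fold change of -1.32. Iigp1 had signals of 10.10 and 8.83 in non-I/R grafts and of 7.73, 6.80 and 6.38 in I/R grafts (log2 fold change -2.50, SE 0.622, limma adjusted p = 0.286), and Gm4951 differed by -1.93 (SE 0.422, adjusted p = 0.284). Irgm1, which regulates the other members, was also below an unadjusted p of 0.05 (-0.63, SE 0.196, adjusted p = 0.308), whereas Gm12250 was not (-0.71, SE 0.382, adjusted p = 0.460). As with the Gbps, graft 2554 was the highest for all 4 genes, with a median of -0.92 when it was left out and of -1.85 when graft 2556 was.

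The genes of interferon signaling that act upstream of the Gbps did not show this uniform direction. Of 20 interferon ligands and receptors and related cytokine genes, 12 had a lower and 8 a higher or equal mean in I/R grafts. Il12b was equal, at 5.43 in all 5 grafts. The median log2 fold change was -0.010, and 1 gene passed an unadjusted limma p of 0.05 in each direction. Ifng, which encodes interferon gamma, had the same value of 6.10 in 4 grafts and 5.97 in graft 2556 (log2 fold change 0.06, SE 0.0458, limma adjusted p = 0.501). Its receptor chains differed by 0.05 (SE 0.0877, adjusted p = 0.747) for Ifngr1 and by -0.01 (SE 0.0499, adjusted p = 0.967) for Ifngr2. The 2 genes past 0.05 were Ifnar1, a chain of the type I interferon receptor (0.35, SE 0.0489, adjusted p = 0.282; 7.64% of all probe sets passed in this direction), and Ifna2 (-0.11, SE 0.0243, adjusted p = 0.284).

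Among 19 measured genes of interferon signal transduction, 11 had a lower and 8 a higher mean, with a median of -0.028. The kinase Jak1 differed by 0.03 (SE 0.0231, limma adjusted p = 0.577) and Jak2 by 0.20 (SE 0.121, adjusted p = 0.477). Among factors that bind GAS or ISRE elements, Stat2 differed by -0.28 (SE 0.170, adjusted p = 0.477) and Irf9 by -0.09 (SE 0.0582, adjusted p = 0.484). Irf1 differed by 0.10 (SE 0.164, adjusted p = 0.755) and Irf8 by 0.40 (SE 0.205, adjusted p = 0.448). None of these 6 genes passed an unadjusted p of 0.05. Genes of the list that did included 2 further factors of this kind, Stat3 (-0.21, adjusted p = 0.286) and the repressor Irf2 (0.32, adjusted p = 0.293). The phosphatase gene Ptpn6 (0.47, adjusted p = 0.315) also passed, and was named after its value was seen. Socs1, which restrains Janus kinases, and Nlrc5, which activates MHC class I genes, differed by -0.01 (adjusted p = 0.990) and -0.14 (adjusted p = 0.667) in limma.

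Other genes induced by interferon gamma were mixed too. Of 23 measured of 25 listed, 13 had a lower and 10 a higher mean in I/R grafts (median log2 fold change -0.068, or 0.0049 without graft 2554 and -0.16 without graft 2556), and only Upp1, a uridine phosphorylase, passed an unadjusted p of 0.05, with a higher signal (0.65, SE 0.204, limma adjusted p = 0.311). Cxcl9, a chemokine gene that is induced strongly by interferon gamma, had signals of 9.08 and 8.08 in non-I/R grafts and 7.94, 6.99 and 6.59 in I/R grafts (-1.41, SE 0.562, adjusted p = 0.368). Its groups did not overlap, and graft 2554 was again the highest. Type I interferon-stimulated genes had lower means for 23 of 27 measured, of 30 listed, with a median of -0.21 (-0.090 without graft 2557), and 4 passed an unadjusted p of 0.05, all with lower signals. Xaf1 (-0.21, SE 0.0226, limma adjusted p = 0.282) and Rtp4 (-0.39, SE 0.0677, adjusted p = 0.282) had the smallest p of these.

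**Figure D4:**
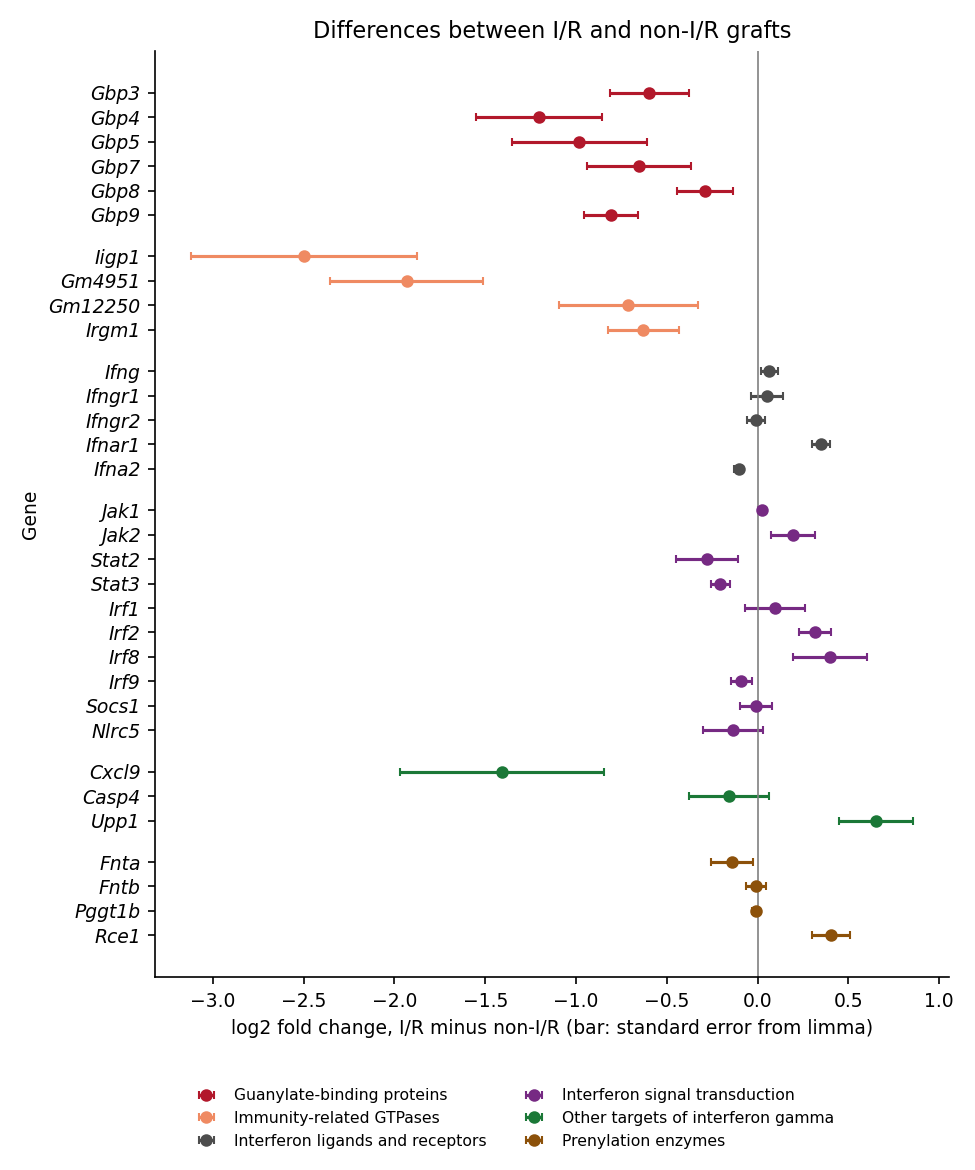
log2 fold change, I/R minus non-I/R (x axis; points with standard errors from limma), of guanylate-binding proteins, immunity-related GTPases, genes of interferon signaling, other targets of interferon gamma and prenylation enzymes (1 gene for each row). The 10 GTPase genes at the top all lie below 0, with Iigp1 at -2.50, whereas the ligands, receptors, kinases and transcription factors spread on both sides of 0.

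Genes that act with Gbp proteins or resemble them were described in the same way. Of 16 measured atlastins and other dynamin superfamily GTPases, 9 had a lower and 7 a higher mean (median log2 fold change -0.040, or -0.15 without graft 2553). Mfn1, a mitochondrial fusion GTPase, was lower (-0.63, SE 0.149, limma adjusted p = 0.286) and Ehd1, an endosomal ATPase, was higher (0.61, SE 0.144, adjusted p = 0.286). Prenylation enzymes attach the lipid that anchors Gbp2 and Gbp5 to membranes. They had 3 lower and 5 higher means of 8 (median 0.033), with Fnta at -0.14 (adjusted p = 0.537), Fntb at -0.01 (adjusted p = 0.959) and Pggt1b at -0.01 (adjusted p = 0.785) in limma, while Rce1, which trims the prenylated end, was higher (0.40, SE 0.105, adjusted p = 0.289).

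Inflammasome and pyroptosis genes, on which Gbps act in infected cells, had 11 higher and 5 lower means of 16. Their median log2 fold change of 0.17 was 0.065 without graft 2556 and 0.27 without graft 2554. Nlrp3 (0.66, SE 0.186, limma adjusted p = 0.293) and Nlrp1a (0.40, SE 0.110, adjusted p = 0.290) passed an unadjusted p of 0.05 with higher signals. Casp4, the gene of caspase-11, differed by -0.16 (SE 0.220, adjusted p = 0.698), and Gsdmd, whose product forms the pyroptotic pore, by 0.16 (SE 0.102, adjusted p = 0.479). Genes of ATG8 conjugation and GTPase targeting, which direct Gbps to vacuoles, had 7 lower and 13 higher means of 20 (median 0.098, or 0.021 without graft 2556), with Map1lc3a at -0.44 (adjusted p = 0.313) and the ubiquitin ligase Traf6 at 0.27 (adjusted p = 0.301) in limma.

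Markers of the cell types a graft could hold were set beside the Gbp values, without a test of their part in them. Macrophage markers had a lower mean in I/R grafts for 7 of 12 genes and none passed an unadjusted p of 0.05. Their summed linear signals overlapped, at 12617 to 18558 in non-I/R and 12300 to 16847 in I/R grafts. Like the Gbps they were highest in graft 2554 for 8 of 12 genes, and their median log2 fold change of -0.096 was 0.22 without this graft and -0.41 without graft 2556. The macrophage gene Adgre1 had signals of 10.04 in graft 2554 and 9.26 in graft 2556, against 9.90, 9.38 and 9.17 in the I/R grafts. The list was mixed in direction. Cd14 (log2 fold change 0.91, SE 0.364) and Itgam (0.83, SE 0.295), which neutrophils also express, were higher in every I/R graft than in both non-I/R grafts, and Cd163 (-0.62, SE 0.309) was lower in every one. T and NK cells are the main source of interferon gamma. Their markers had lower or equal means in I/R grafts for 14 of 17 genes, with a median of -0.11. Cd3d was equal, with the same value in every graft. Summed signals of these markers were 974 to 1075 in non-I/R and 937 to 1024 in I/R grafts. For 11 of the 17 genes graft 2554 was the highest. This graft was also highest for 10 of 12 cardiomyocyte, 6 of 8 fibroblast and 17 of 27 type I interferon-stimulated genes. For neutrophil markers it was highest in 1 of 12 genes, and for endothelial markers in 2 of 12. The share over all probe sets was not computed. The part of macrophages or of T and NK cells in the Gbp values was not tested.

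Cardiomyocyte markers had lower means in I/R grafts for 12 of 12 genes, 11 of them below an unadjusted p of 0.05, with a median log2 fold change of -0.53. Their summed signals were 93041 to 104696 in non-I/R and 58945 to 73890 in I/R grafts, and thus separated the groups as 5 of the Gbps did. Neutrophil markers went the other way, with higher means for 10 of 12 genes and a median of 0.82. These genes summed to 11867 to 13161 in non-I/R and 13183 to 21419 in I/R grafts. Whether either shift had a part in the Gbp signals was not tested.

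For the remaining cell types the medians were 0.12 for 12 endothelial, -0.20 for 8 fibroblast, 0.012 for 8 smooth muscle and pericyte, 0.025 for 9 dendritic cell and 0.17 for 6 B cell markers. Atrial markers, with a median of -0.26 over 6 genes, differed widely within both groups, where the list averaged 1.35 above its own mean in graft 2554 but -1.16 in graft 2556, both non-I/R, and -0.80, 0.65 and -0.045 in I/R grafts 2553, 2555 and 2557. The atrial average was thus highest in graft 2554, as was the Gbp average, whereas grafts 2555 and 2556 ordered oppositely in the 2 averages. Of the 6 atrial genes, 4 were highest in graft 2554 and 2, Myl4 and Myl7, in graft 2555. The part of atrial tissue in the Gbp values was not tested. Summed fibroblast signals, at 10961 to 13737 in non-I/R and 9128 to 10531 in I/R grafts, also separated the groups, and the fibroblast median was -0.044 without graft 2554 and -0.41 without graft 2556. So did those of smooth muscle and pericyte markers, at 7982 to 8260 in non-I/R and 6815 to 7606 in I/R grafts. Such sums weigh bright genes most, and single genes were mixed. Higher means in I/R grafts were seen for 2 of 8 fibroblast and 4 of 8 smooth muscle and pericyte markers. Pdgfra, Acta2 and Cnn1 were higher in every I/R graft than in both non-I/R grafts, whereas Dcn, Abcc9, Rgs5 and Kcnj8 were lower in every one. The part of either list in the Gbp values was not tested. The deposited values hold no detection calls, so no marker could be placed at background.

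**Figure D5:**
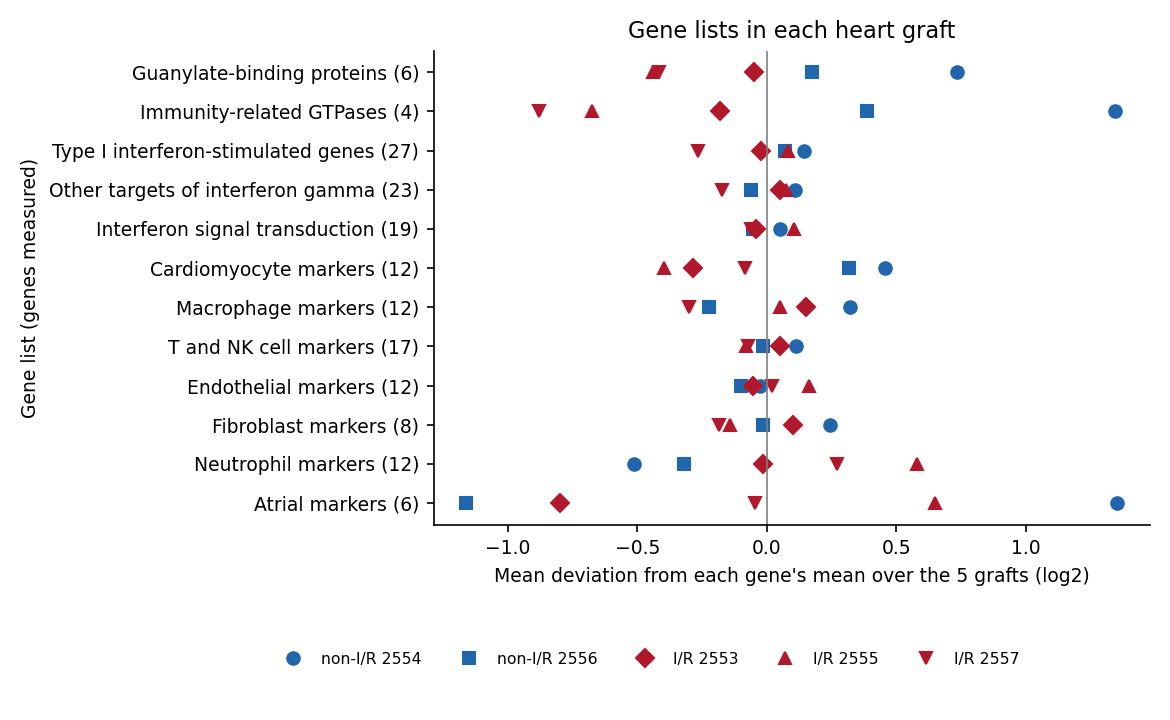
Mean deviation from each gene's own mean over the 5 grafts, on the log2 scale (x axis), of 12 gene lists (y axis, with the number of genes measured) in non-I/R (blue) and I/R grafts (red). Guanylate-binding proteins lie at 0.73 and 0.17 in non-I/R grafts and between -0.44 and -0.050 in I/R grafts, in the same graft order for the top 3 grafts as immunity-related GTPases.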

How the data were processed

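The deposited table holds a log2 signal of 35556 probe sets for each graft, which the authors computed by RMA, with Partek named beside it (versions not given in the sources used here). RMA subtracts background and equalises the distributions of the arrays, which can hide a shift shared by most genes. Values were tested as deposited in R 4.3.3 by the lmFit and eBayes functions of limma 3.58.1 (two-sided, prior df 0.824), with Benjamini-Hochberg adjustment over 21789 probe sets with a single symbol. Another 1621 name several genes and 12146 are not listed in the annotation used here. The labels give the groups and no batch. Named genes were all members, the 2 genes of each pathway list with the smallest p, textbook genes of the pathway and the 10 nearest profiles. For lists, the brightest probe set of a gene was used. The members and lists were chosen with earlier results of these data known. Steps were tested on simulated data. Motifs were counted in Python 3.11.15, and plots drawn with matplotlib 3.10.9. The alternatives were the methods' t-test, other eBayes settings, array weights, other normalizations, filters and leaving out grafts. No genome build is given for the probe sets, so none of their coordinates are printed.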

Additional observations from a re-analysis of the deposited data

How the results depend on the processing

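In 17 alternatives, all 99 values of single Gbp genes kept a lower signal in I/R grafts, 78 of them on the same side of an unadjusted p of 0.05, with 6 losing and 15 gaining the call. Many of these directions were fixed in advance, because the t-test, the eBayes settings and the choice of probe sets leave a gene's fold change as it was. Only array weights, other normalizations and leaving out grafts could change it. The median log2 fold change of the members, -0.73, had a range of -0.98 to -0.46. In every alternative this median moved by less than 0.290, the SD between grafts of the same group (pooled) of the mean deviation over the 6 genes. The number of members with a lower signal at an unadjusted p below 0.05 was 2 in limma. It was 1 in the methods' t-test, 4 with array weights, 5 with quantile normalization, 4 with median-centred arrays, 4 without probe sets equal on all arrays and 5 of 5 without tied probe sets (Gbp8 left out). With 1 graft left out it lay between 1 and 4 (1 without graft 2554, 2555 or 2557, 2 without 2553 and 4 without 2556), and without grafts 2554 and 2555 together it was 0. Members at the 2-fold criterion numbered 1 in limma, 0 in the methods' t-test, 2 with array weights, 0 to 3 with 1 graft left out (1 without graft 2553, 0 without 2554, 2555 or 2557, 3 without 2556) and 0 without grafts 2554 and 2555 together. The filter on dim probe sets left 4 members, of which 3 (Gbp3, Gbp4 and Gbp9) were below an unadjusted p of 0.05. Over all probe sets, 7.35% were lower at an unadjusted p below 0.05 in limma and 4.52% in the t-test. This share was not computed for the other settings. Whether the member counts moved more than calls over all probe sets was therefore not tested. No paired analysis was possible because the grafts came from different animals and the labels give no number that the groups share. The number of arrays limits the precision, and signal over background could not be assessed from these values.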
